A study of Danio rerio with 12 samples.

Results

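The comparison set GFP-positive cells of the zebrafish intestine, called metaphocytes by the submitters, against DsRedx-positive cells of the same organ, called macrophages. It rested on 6 of the 12 libraries of the series, 3 per color, taken by the tissue and color in their labels. Of 32520 genes in the count table, 8665 had at least 10 counts in at least 3 of those 6 libraries and were tested. All fish were adults that carried the sox17:CreERT2 and the mpeg1:loxP-DsRedx-loxP-GFP transgenes, so both colors come from fish with the same transgenes. By their labels the groups differ in the color that was sorted. Whether the fish or the sort also differed between colors is not stated there. In this design the mpeg1 promoter drives DsRedx until Cre removes it, after which the same promoter drives GFP. CreERT2 is a ligand-dependent Cre, and whether and when the ligand was given is not stated in the labels. GFP therefore marks mpeg1 reporter cells in which Cre, placed under sox17, acted in the cell itself or in an ancestor. DsRedx marks the rest, which would include cells of the sox17 lineage in which Cre did not act. From 30 to 50 cells per sample were sorted straight into lysis buffer and amplified by SMART-seq2, a full-length cDNA method. The labels do not tie the 3 libraries of a color to separate fish, so p-values measure only the spread between these libraries, which may be technical.

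Sox17 is a transcription factor of endoderm, the germ layer that lines the gut, whereas tissue macrophages descend from blood-forming mesoderm. Mpeg1 is a perforin-like protein of macrophages, and its promoter is the usual macrophage reporter in zebrafish. Macrophages engulf particles and dying cells, degrade them in lysosomes and present peptides on MHC class II, whereas gut epithelial cells are joined by tight junctions and face the lumen with a brush border of microvilli. In the zebrafish mid-intestine, specialised lysosome-rich enterocytes also take up protein from the lumen through the receptors cubilin and amnionless and the adaptor Dab2.

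The 6 libraries held 7942409 to 12365233 counts. A count was seen for 12802 to 13278 genes in GFP and 11312 to 11767 genes in DsRedx libraries. Levels are given as CPM, counts on the scale of a library of fixed size after TMM scaling, in the order of replicates 1, 2 and 3. Replicates correlated on log2 CPM at 0.70 to 0.77 in GFP cells and 0.59 to 0.62 in DsRedx cells, against 0.37 to 0.45 between colors. The first principal component (46.2% of the variance) separated the colors. The second (20.8%) spread the DsRedx libraries, with replicate 3 at -146.3 and replicate 1 at 100.3, while GFP libraries lay between -9.65 and 3.91.

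The driver genes were read first. MPEG1 (ENSDARG00000055290) was at 270, 301 and 213 CPM in GFP and 1530, 2308 and 2097 CPM in DsRedx cells. All GFP libraries were lower, with a log2 fold change of -2.92 (SE 0.39, adjusted p = 0.00181). Adjusted p-values are those of the quasi-likelihood test of edgeR, with Benjamini-Hochberg adjustment over the tested genes, and a gene was called below 0.05. SOX17 itself was read at 0.0858, 4.51 and 39.8 CPM in GFP and 0.305, 0.439 and 0 CPM in DsRedx libraries, too few for the test, with nearly all its counts in GFP 3 and GFP 2.

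The labelled cell types were checked against marker genes. Of the macrophage markers, ptprc, SPI1, IRF8, csf1ra, marco, c1qa, c1qb and c1qc were all present in every DsRedx library and at most 7.20 CPM in any GFP library. The actin-bundling leukocyte gene LCP1 was high in both colors, at 1295, 948 and 1637 CPM in GFP and 2010, 1103 and 3589 CPM in DsRedx cells (adjusted p = 0.365). Csf1rb was at 1 count in GFP and 4 counts in DsRedx cells together. Of the other mpeg1 copies, ENSDARG00000078569 was at 0 in all 6 libraries and ENSDARG00000043093 at 0.429, 3.36 and 0.144 CPM in GFP and 30.2, 43.8 and 1.98 CPM in DsRedx cells (adjusted p = 0.201). In GFP cells the called MPEG1 gene and LCP1 were present with those 8 genes at 7.20 CPM or less. Of the gut markers, VIL1, cdx1b and FABP6 were high in all GFP libraries, while HNF4A, apoa4a and SLC15A1 were nearly confined to GFP 2, as given below. In bulk samples of sorted cells, fewer cells of a type and less RNA per cell cannot be told apart.

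Between the colors 1060 genes were called, or 12.2% of those tested: 626 higher in GFP cells (7.22%) and 434 lower (5.01%). The median log2 fold change of all tested genes was -0.14 with TMM scaling, -0.49 with RLE and 0.24 with upper-quartile scaling, so list medians below are read against -0.14. The balance of calls moved with scaling, from 59.06% higher under TMM to 50.2% under RLE and 68.5% under upper-quartile scaling. Of the 1060 calls, 279 (131 higher, 148 lower) stayed in each of 6 fits that left out 1 library. Fits without a GFP library gave the fewest calls, 363, 360 and 373 without GFP 1, 2 and 3. Without DsRedx 1 and 2 there were 704 and 701. A gene present in 1 color alone passes the count filter only through that color, so the list counts below describe the tested members and are no evidence about whole lists. Each list count is read against the shares over all tested genes, 7.22% higher and 5.01% lower.

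For most genes with a large fold, the lower color lay at nearly the same small percentage of the higher color's mean. Of the 626 genes higher in GFP cells, 528 had a DsRedx mean under 2% of their GFP mean, and the medians in the 3 DsRedx libraries were 1.1, 1.12 and 1.06% of it. Among 52 such genes of 300 CPM or more in GFP cells, the DsRedx level varied by a median of 12.4% between libraries (SD over mean), against 19.7% for the GFP level. In the other direction 245 of 434 genes lay under 2%, at medians of 0.50, 0.45 and 0.53% in GFP libraries. A log2 fold change near 6.3 (about 80-fold) is therefore shared by many of the genes named below. What sets this percentage, called the common low level below, was not tested. With 3% of each gene's mean over the 6 libraries removed from every library, 517 genes were called, 326 higher and 191 lower, and all 517 were among the 1060. Values that fell below 0 were set to 0. A call could end although the fold grew, as for the gene SLC7A7 (log2 fold change -6.69 before and -7.93 after). Why a call ended in this fit was not tested.

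**Figure D1:**
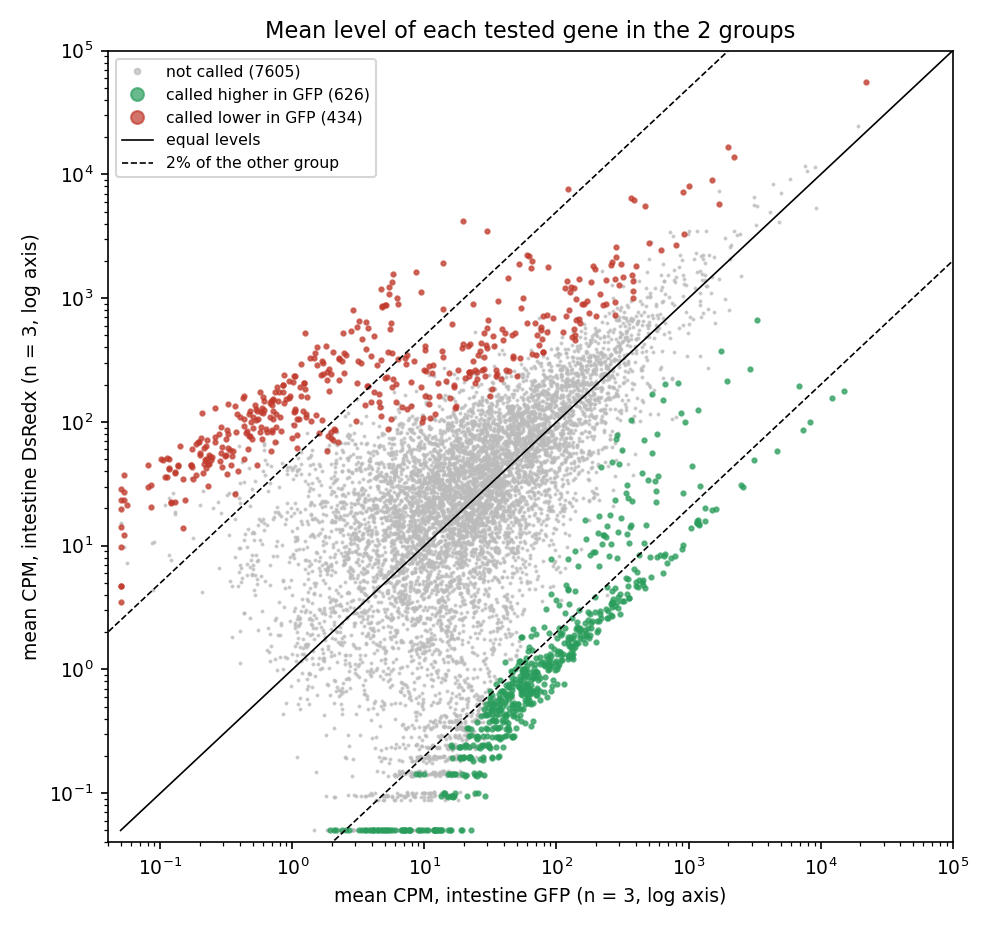
Mean CPM of each of the 8665 tested genes in GFP cells (x axis) and DsRedx cells (y axis), n = 3 libraries each, both axes logarithmic, means under 0.05 drawn at 0.05. Genes called higher in GFP cells (green, 626) gather in a narrow band just below the 2% line, while genes called lower (red, 434) lie on both sides of the 2% line, 245 of them beyond it.

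Transcription factors of the gut tube were among the genes higher in GFP cells. Of 52 listed gut endoderm transcription factor genes, 17 were tested, 7 were higher, and the median log2 fold change was 4.90. Without GFP 2 the count was 3. No tested member of the gut endoderm, epithelial regulator, junction, keratin or brush border lists was called lower by edgeR, and none of them had an unadjusted p under 0.05 or a DESeq2 call in that direction. Foxa3, a forkhead factor of gut, liver and pancreas, was at 1259, 1191 and 1162 CPM in GFP and 15.08, 15.7 and 14.4 CPM in DsRedx cells. The GFP libraries lay close together and far above all DsRedx libraries (log2 fold change 6.32, SE 0.45, adjusted p = 0.000157).

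Cdx1b, a caudal-type factor of intestinal fate in zebrafish, was at 358, 327 and 386 CPM in GFP and 3.81, 3.95 and 3.56 CPM in DsRedx cells (adjusted p = 0.000300). GATA6, a zinc finger factor of endoderm, was at 162, 190 and 175 CPM against 1.68, 1.76 and 1.98 CPM (adjusted p = 0.00103). Neither gene overlapped between colors. HNF4G, a nuclear receptor of absorptive cells in mammals, was at 59.8, 84.9 and 103 CPM against 1.07, 1.46 and 0.790 CPM (adjusted p = 0.00895, not called in 2 of the 6 fits without a library, up to 0.0704). Its relative HNF4A had 72 counts over the GFP libraries, nearly all of them in GFP 2, and 0 in DsRedx libraries. PROX1 was at 267, 246 and 235 CPM in GFP cells, and DsRedx 3 (18.6 CPM) stood above DsRedx 1 and 2 (3.05 and 3.37 CPM). Its call (adjusted p = 0.0103) ended without GFP 1 (0.0576) or GFP 2 (0.0517), and with 3% of the mean removed (0.121).

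General epithelial regulators were read next. Of 38 listed genes 12 were tested and 7 were higher (median log2 fold change 6.36), but only 2 or 3 were called whichever library was left out. ESRP1, an epithelial splicing regulator, was at 111, 53.0 and 50.3 CPM in GFP cells against 0.457, 0.878 and 0.527 CPM in DsRedx cells (adjusted p = 0.00994, 0.0945 without GFP 1). The GFP libraries disagreed on ELF3, another epithelial factor, at 0.772, 86.7 and 330 CPM, and GFP 1 lay below all DsRedx libraries (2.29, 1.46 and 1.05 CPM). Its call (adjusted p = 0.0479) held in 1 of the 6 fits without a library.

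Most tested tight junction genes were higher in GFP cells. Of 62 listed tight junction genes 25 were tested and 17 (68.0%) were higher, and 9 to 11 were called whichever library was left out. The median log2 fold change was 6.21. The claudins cldn15la and cldn15lb, whose mammalian relative forms sodium pores in gut, were at 1199, 1311 and 1054 CPM and 2838, 2940 and 1927 CPM in GFP cells. In DsRedx cells cldn15la was at 18.1, 12.9 and 17.3 CPM and cldn15lb at 29.6, 32.5 and 27.4 CPM (adjusted p = 0.000157 and 0.000157). Both claudins were even across the GFP libraries and far above every DsRedx library.

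Other junction proteins varied more between libraries. The claudin cldn3d was at 719, 1068 and 1368 CPM against 14.8, 12.9 and 14.2 CPM (adjusted p = 0.000190), and cldn3c at 83.8, 267 and 886 CPM against 4.72, 4.83 and 4.48 CPM (adjusted p = 0.00347). Cldn3c was lowest in GFP 1 and highest in GFP 3, and even GFP 1 lay far above DsRedx cells. Among members chosen after their values were seen, occludin (oclna) was at 149, 388 and 342 CPM against 4.57, 3.37 and 3.69 CPM (adjusted p = 0.000840). The scaffold gene tjp3 was at 128, 198 and 195 CPM against 2.59, 3.07 and 3.03 CPM (adjusted p = 0.00170). The tricellular junction receptor gene lsr was at 197, 328 and 212 CPM against 2.44, 3.37 and 3.16 CPM (adjusted p = 0.000714). All 5 genes were called in every fit without a library.

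Adherens junctions and desmosomes, which tie neighbouring cells by cadherins, gave 12 higher of 17 tested (40 listed), and 4 without GFP 2 or GFP 3 and 6 without GFP 1. Epcam was at 1296, 1125 and 2384 CPM against 22.6, 20.3 and 16.1 CPM (adjusted p = 0.000209). Plakophilin gene pkp3a was at 288, 205 and 131 CPM against 2.13, 2.63 and 2.63 CPM (adjusted p = 0.00109), and alpha-catenin gene ctnna1 at 292, 112 and 209 CPM against 1.83, 2.05 and 2.11 CPM (adjusted p = 0.00113). Groups did not overlap for these 3 genes. E-cadherin (cdh1) was at 979, 910 and 1318 CPM in GFP cells, and DsRedx 1 held 110 CPM against 11.4 and 11.3 CPM in the others. Its call (adjusted p = 0.0174) ended without any 1 of the GFP libraries, at up to 0.0679, and with 3% of the mean removed (0.242).

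Keratins were higher in GFP cells or not called. Of 26 listed genes 8 were tested, 4 were higher and none was lower, and the median log2 fold change was 5.72. The simple-epithelium keratin krt18a.1 was at 2148, 2576 and 2817 CPM in GFP and 31.1, 32.05 and 29.0 CPM in DsRedx cells (adjusted p = 0.000154), and krt92 at 357, 464 and 189 CPM against 6.55, 5.71 and 4.21 CPM (adjusted p = 0.000831). Krt8 and krt18b, which were looked at after their values were seen, were high in both colors. Krt8 was at 2011, 1670 and 961 CPM against 778, 1093 and 444 CPM (adjusted p = 0.207) and krt18b at 1359, 1365 and 1106 CPM against 589, 859 and 837 CPM (adjusted p = 0.233). Neither passed the test, and the 2 colors overlapped for krt8 but not for krt18b.

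The brush border, the microvillus carpet of an absorptive cell, was represented by genes high in GFP libraries. Of 57 listed genes 18 were tested and 11 (61.1%) were higher, and the median log2 fold change was 6.27. The count fell to 7 without GFP 1 or GFP 2. Villin (VIL1), which bundles microvillus actin, was at 792, 764 and 1155 CPM against 10.97, 9.80 and 9.88 CPM (adjusted p = 0.000158). Harmonin (USH1C) and ANKS4B, which in mammals link the tips of neighbouring microvilli, were at 154, 195 and 160 CPM and 156, 233 and 438 CPM in GFP cells. In DsRedx cells USH1C was at 1.98, 1.76 and 1.84 CPM and ANKS4B at 3.05, 3.37 and 3.42 CPM (adjusted p = 0.00114 and 0.000885). For all 3 the groups were far apart.

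The motor gene MYO5B, needed to carry membrane to the apical face, was at 182, 81.1 and 108 CPM against 1.37, 1.32 and 1.19 CPM (adjusted p = 0.00303). Aminopeptidase N (ANPEP, ENSDARG00000103878), an enzyme that trims peptides at the lumen, was at 87.4, 490 and 328 CPM against 5.49, 3.51 and 3.29 CPM (adjusted p = 0.00222). The tetraspan genes TM4SF4 and TM4SF5 were at 9326, 8015 and 7409 CPM and 325, 206 and 254 CPM in GFP cells. TM4SF4 was at 109, 99.1 and 93.7 CPM and TM4SF5 at 3.05, 3.07 and 3.56 CPM in DsRedx cells (adjusted p = 7.78e-05 and 0.000603). MYO5B, ANPEP (ENSDARG00000103878), TM4SF4 and TM4SF5 were called in every fit without a library.

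**Figure D2:**
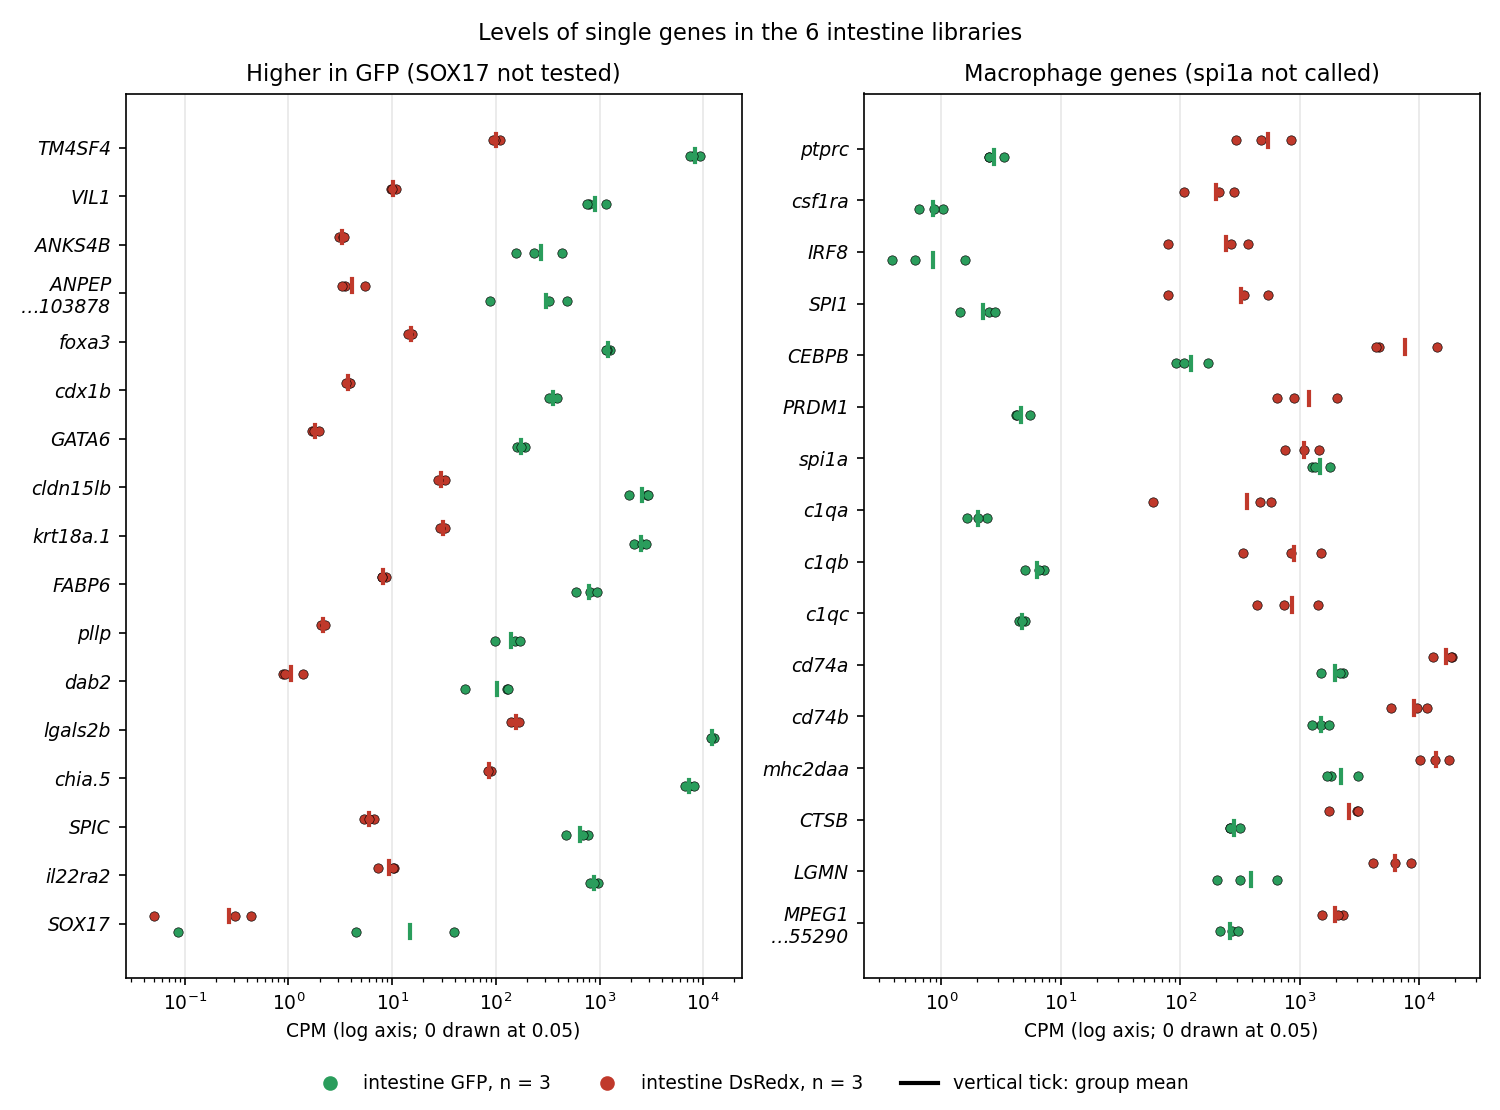
CPM of 33 genes in each of the 6 intestine libraries (dots, logarithmic axis, 0 drawn at 0.05), with the mean of each color (vertical tick), GFP green and DsRedx red, n = 3 each. Apart from SOX17 (left) and spi1a (right), no gene shown overlaps between colors, and DsRedx dots on the left are tightly bunched at their low level.

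Few tested genes on the list of protein uptake by lysosome-rich enterocytes were called. Of 45 listed genes 30 were tested, 4 were higher (13.3%, against 7.22% of all genes), none was lower by edgeR (1 at an unadjusted p under 0.05, 1 by DESeq2), and the median of 0.29 turned to -0.09 under RLE scaling. Dab2, the cargo adaptor, was at 128, 50.4 and 130 CPM against 1.37, 0.878 and 0.922 CPM (adjusted p = 0.00536, 0.0552 without GFP 1). Plasmolipin (pllp), an endosome membrane protein of these enterocytes in zebrafish, was at 154, 172 and 97.7 CPM against 2.13, 2.05 and 2.24 CPM (adjusted p = 0.00254). The recycling-endosome gene rab11fip1a was at 116, 68.5 and 204 CPM against 1.83, 1.76 and 1.71 CPM (adjusted p = 0.00399, 0.0569 without GFP 3). FABP6, a bile acid binding protein of the distal gut, was at 814, 588 and 952 CPM against 8.69, 7.90 and 8.04 CPM (adjusted p = 0.000163). Of the receptor genes, CUBN and amn had 0 counts in all 6 libraries, and lrp2b had 1 count in GFP and 2 counts in DsRedx cells.

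Genes on 3 lists of absorption and transport were called in both directions. Those called lower were PLIN2 and plin3 on the fat list and ca2 on the list of sugar, ion, vitamin and water transport. On the amino acid and peptide list they were SLC15A4, SLC7A7, slc7a11 and SLC43A2 (ENSDARG00000061120). PLIN2 is also counted on the list of macrophage lipid handling. FABP6, called higher on the fat list, is also counted on the list of lysosome-rich enterocytes. Of 61 fat absorption genes 20 were tested, with 3 higher (15.0%) and 2 lower (10%), and 1 higher whichever library was left out and none lower without any 1 GFP library. For these 3 lists the shares over all tested genes were 7.22% higher and 5.01% lower. Among 76 sugar, ion, vitamin and water transport genes 18 were tested, with 2 higher (NIPAL4 and AQP3, none without GFP 2 or GFP 3 and 1 without GFP 1, DsRedx 1 or DsRedx 2) and 1 lower, or 11.11% and 5.56%. Among 40 amino acid and peptide transporters 21 were tested, with 1 higher (SLC6A19, ENSDARG00000091560, not called in any fit without a library) and 4 lower (1 without GFP 2, and 2 without GFP 1, GFP 3 or DsRedx 2), or 4.76% and 19.1%. The enterocyte fatty acid carrier FABP2 was at 18.9, 732 and 52.8 CPM in GFP and 33.7, 46.4 and 4.48 CPM in DsRedx cells (adjusted p = 0.166), so GFP 2 stood alone and GFP 1 lay below DsRedx 1 and 2. The apolipoprotein gene apoa4a had 152 counts in GFP cells, almost all in GFP 2, at 0.17, 14.3 and 0.07 CPM. The peptide transporter SLC15A1 (ENSDARG00000044528) was at 0, 16.2 and 0 CPM in GFP cells.

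Of the transporters and enzymes that passed, the aquaglyceroporin gene AQP3 (ENSDARG00000003808) was at 48.5, 102 and 96.3 CPM against 1.37, 0.732 and 0.527 CPM (adjusted p = 0.00921, 0.0692 without GFP 2 and 0.0650 without GFP 3). Carbonic anhydrase gene ca2 went the other way, at 0.514, 0.576 and 0.721 CPM in GFP and 148, 241 and 91.2 CPM in DsRedx cells (adjusted p = 0.00100). CYP1A1, the target of the aryl hydrocarbon receptor, varied widely between GFP libraries, at 460, 118 and 20.5 CPM against 2.74, 1.76 and 0.527 CPM (adjusted p = 0.0137, 0.119 without GFP 1 and 0.0564 without DsRedx 2).

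Some of the most even differences were in secreted and surface-layer genes. Galectin gene lgals2b, a sugar-binding protein, was at 12230, 12630 and 11840 CPM in GFP and 156, 168 and 140 CPM in DsRedx cells (log2 fold change 6.30, SE 0.36, adjusted p = 7.78e-05). The chitinase genes chia.5 and chia.6, whose products digest chitin, were at 7290, 6633 and 8125 CPM and 1418, 1132 and 1456 CPM in GFP cells. In DsRedx cells chia.5 was at 85.3, 90.1 and 84.6 CPM and chia.6 at 14.5, 13.8 and 18.97 CPM (adjusted p = 7.78e-05 and 0.000157). All 3 genes were even within GFP cells, and in DsRedx cells they lay at 1.26, 1.18 and 1.18% of the GFP mean.

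Calcium-binding genes divided. Of 31 listed S100 and annexin genes 12 were tested, 6 were higher and 1 was lower, with 3 higher without GFP 3. Ictacalcin (icn), an S100-type protein, was at 3031, 2982 and 3325 CPM against 68.3, 43.8 and 34.8 CPM (adjusted p = 0.000157). Annexin gene ANXA4, a membrane-binding protein of epithelia, was at 6495, 8084 and 6168 CPM against 162, 249 and 171 CPM (adjusted p = 0.000157). Anxa13 was the reverse, at 0.343, 0.192 and 0.577 CPM in GFP and 84.4, 104 and 214 CPM in DsRedx cells (log2 fold change -8.43, adjusted p = 0.00167). Annexin A13 is known as a protein of the gut epithelium in mammals, and here its RNA was in the DsRedx libraries.

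Some immune genes were higher in GFP cells. SPIC, an ETS transcription factor of red pulp macrophages in mice, was at 770, 479 and 685 CPM in GFP and 5.33, 6.73 and 5.93 CPM in DsRedx cells (log2 fold change 6.75, SE 0.54, adjusted p = 0.000182). MYB, a factor of blood progenitors that is also known from intestinal crypts in mice, was at 220, 163 and 56.5 CPM against 1.52, 3.37 and 1.58 CPM (adjusted p = 0.00524, 0.0615 without GFP 1). SPIC was thus higher in the same cells in which SPI1, its relative, was at 2.49, 1.44 and 2.81 CPM against 544, 341 and 79.2 CPM (adjusted p = 0.00169). A further PU.1 type gene, spi1a, was at 1802, 1271 and 1343 CPM against 1459, 1077 and 747 CPM, and its groups overlapped (adjusted p = 0.587).

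Receptors of the interleukin 10 and 22 family were among them. Il22ra2, which in mammals encodes a soluble protein that binds interleukin 22, was at 967, 875 and 813 CPM in GFP and 10.5, 10.24 and 7.38 CPM in DsRedx cells (adjusted p = 0.000157) and was called in each such fit. Il20ra, a receptor chain of epithelial cells in mammals, was at 26.2, 43.6 and 54.3 CPM against 0.457, 0.439 and 0.395 CPM (adjusted p = 0.0244, not called without any 1 GFP library, up to 0.104). Over the 74 listed interleukin and TNF family genes, 31 were tested. Higher were 3 (9.68%, against 7.22% of all genes), and 1 without any 1 GFP library. Lower were 4 (12.9%, against 5.01% of all genes), and 2 without any 1 GFP library.

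Several leukocyte genes did not pass the test in either direction, and they were picked after their values were seen. The small GTPase gene rac2 was at 589, 602 and 526 CPM against 620, 583 and 425 CPM (adjusted p = 0.951) and its groups overlapped. Coronin gene CORO1A was at 518, 383 and 401 CPM against 360, 255 and 175 CPM (adjusted p = 0.386), with no overlap. Of MHC class I genes 25 were listed, 20 were tested and none was called by edgeR, 4 of them having an unadjusted p under 0.05 and 2 a DESeq2 call. Among them b2m (beta-2 microglobulin, adjusted p = 0.135 by edgeR) was at 1087, 1035 and 1172 CPM against 2532, 2245 and 1417 CPM. A p that misses the threshold does not show equal levels.

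Many regulators of macrophage fate were lower in GFP cells. Of 48 listed myeloid and lymphoid transcription factors 28 were tested, 15 were lower in GFP cells (53.6%, against 5.01% of all genes) and 2 were higher, SPIC and MYB. The number lower fell to 7 without GFP 1 or GFP 3. The median log2 fold change was -2.85.

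IRF8, needed for macrophage formation in zebrafish, was at 0.600, 0.384 and 1.59 CPM against 268, 79.0 and 371 CPM (adjusted p = 0.00169). CEBPB, an inflammatory bZIP factor, was at 92.8, 169 and 106 CPM against 4590, 4311 and 14110 CPM (adjusted p = 0.000606). Neither gene overlapped, although DsRedx 3 held about 3 times the CEBPB of the other DsRedx libraries. PRDM1 (Blimp-1), a transcriptional repressor that acts in terminal differentiation of immune cells, was at 4.202, 4.32 and 5.48 CPM against 900, 2039 and 646 CPM (adjusted p = 0.000214). RUNX3 was at 31.2, 35.4 and 63.3 CPM against 1057, 1023 and 2281 CPM (adjusted p = 0.000787), at a level in GFP cells above the common low level.

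Surface identity genes were lower in GFP cells for 13 of 41 tested (47 listed), none was higher by edgeR (1 at an unadjusted p under 0.05, 1 by DESeq2), and the count was 10 to 13 in the fits without a library. The CSF1 receptor gene csf1ra, on which macrophage survival depends, was at 1.03, 0.863 and 0.649 CPM against 108, 284 and 210 CPM (adjusted p = 0.000702). CD45 (ptprc), the phosphatase of nearly all leukocytes, was at 2.49, 2.49 and 3.32 CPM against 473, 293 and 850 CPM (adjusted p = 0.000300). Outside that list, the chemoattractant receptor gene CMKLR1 (ENSDARG00000090890) was at 6.35, 5.75 and 6.42 CPM against 1136, 1256 and 610 CPM (adjusted p = 0.000157). These 3 genes lay at or under 0.62% of their DsRedx mean in GFP cells. Also outside the list, the connexin gene gja13.2 was at 2.23, 2.88 and 3.46 CPM against 507, 960 and 948 CPM (adjusted p = 0.000157). The galectin-3 binding protein gene lgals3bp.1, outside it too, was at 21.9, 16.6 and 20.1 CPM against 4855, 6071 and 1613 CPM (adjusted p = 0.000209).

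Engulfment genes were lower for 11 of 19 tested (57.9%, 37 listed), and 7 were called without any 1 GFP library. The median log2 fold change was -5.51. None was higher by edgeR, at an unadjusted p under 0.05 or by DESeq2, and the same held for the MHC class II genes. C1q, which opens the classical complement pathway and tags dying cells, has 3 chain genes. C1qa was at 2.40, 1.63 and 2.02 CPM in GFP and 462, 571 and 59.7 CPM in DsRedx cells, c1qb at 7.20, 4.99 and 6.63 CPM and 844, 1497 and 332 CPM, and c1qc at 4.46, 4.99 and 4.76 CPM and 743, 1417 and 441 CPM (adjusted p = 0.00186, 0.000501 and 0.000266). DsRedx 3 was the lowest DsRedx library for each chain. The phosphatidylserine receptor gene havcr1 was at 2.74, 2.21 and 2.67 CPM against 618, 339 and 86.9 CPM (adjusted p = 0.00147), and DsRedx 3 was again lowest.

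Several MHC class II genes were lower in GFP cells but well detected. Of 18 listed genes 12 were tested, 6 were lower, and 4 to 6 were called in the fits without a library. One of the 6 is the protease gene LGMN, which is also counted on the lysosome list. The invariant chain genes cd74a and cd74b were at 2288, 2164 and 1511 CPM and 1510, 1768 and 1271 CPM in GFP cells. In DsRedx cells cd74a was at 18710, 18290 and 13050 CPM and cd74b at 9535, 11520 and 5841 CPM (log2 fold changes -3.07, SE 0.34, and -2.56, SE 0.37, adjusted p = 0.000724 and 0.00287). The alpha chain gene mhc2daa, which lies outside that list, was at 1817, 3076 and 1687 CPM against 10080, 17910 and 13570 CPM (adjusted p = 0.00300). The listed gene mhc2dab was at 1196, 952 and 569 CPM against 7704, 11270 and 2786 CPM (adjusted p = 0.00994). Its call ended without GFP 2 (0.0627) or GFP 3 (0.0591). GFP cells kept 11.9, 16.9 and 15.8% of the DsRedx level of cd74a, cd74b and mhc2daa, far above the common low level. Of proteases that process antigen, the cathepsin S gene ctss2.1 was at 64.3, 58.4 and 73.3 CPM against 2608, 1607 and 1812 CPM (adjusted p = 0.000261), and legumain (LGMN) at 202, 318 and 645 CPM against 6215, 8507 and 4108 CPM (adjusted p = 0.00196).

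Lysosomal genes were mostly lower in GFP cells or not called. Of 67 listed genes 61 were tested, 21 were lower in GFP cells (34.4%) and 2 were higher. The number lower fell to 8 without GFP 2, 11 without GFP 3 and 13 without GFP 1. Cathepsins CTSB and CTSD, general proteases of the lysosome, were at 263, 262 and 318 CPM and 98.7, 209 and 138 CPM in GFP cells. CTSB was at 2990, 3087 and 1743 CPM and CTSD at 1741, 1481 and 1066 CPM in DsRedx cells (adjusted p = 0.00127 and 0.00248), and neither overlapped. The cholesterol carrier gene NPC2 (ENSDARG00000096979) was at 3.002, 3.45 and 3.03 CPM against 452, 286 and 189 CPM (adjusted p = 0.000567).

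The lysosomal genes called higher were a cathepsin L gene and a progranulin gene. Ctsl.1 was at 67.7, 528 and 242 CPM in GFP and 3.35, 4.39 and 5.80 CPM in DsRedx cells (log2 fold change 5.95, SE 0.92, adjusted p = 0.00409). Progranulin gene grna.2 was at 508, 1124 and 1193 CPM against 89.0, 40.1 and 172 CPM (adjusted p = 0.0140, 0.0655 without GFP 2, 0.0670 without GFP 3 and 0.0614 without DsRedx 1). The proton pump that acidifies lysosomes had 3 of 19 tested subunit genes lower (15.8%, against 5.01% of all genes, 26 listed, 1 without GFP 1 or GFP 3). One was ATP6V0C (ENSDARG00000057853), at 164, 189 and 216 CPM against 1645, 2113 and 1679 CPM (adjusted p = 0.000968).

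**Figure D3:**
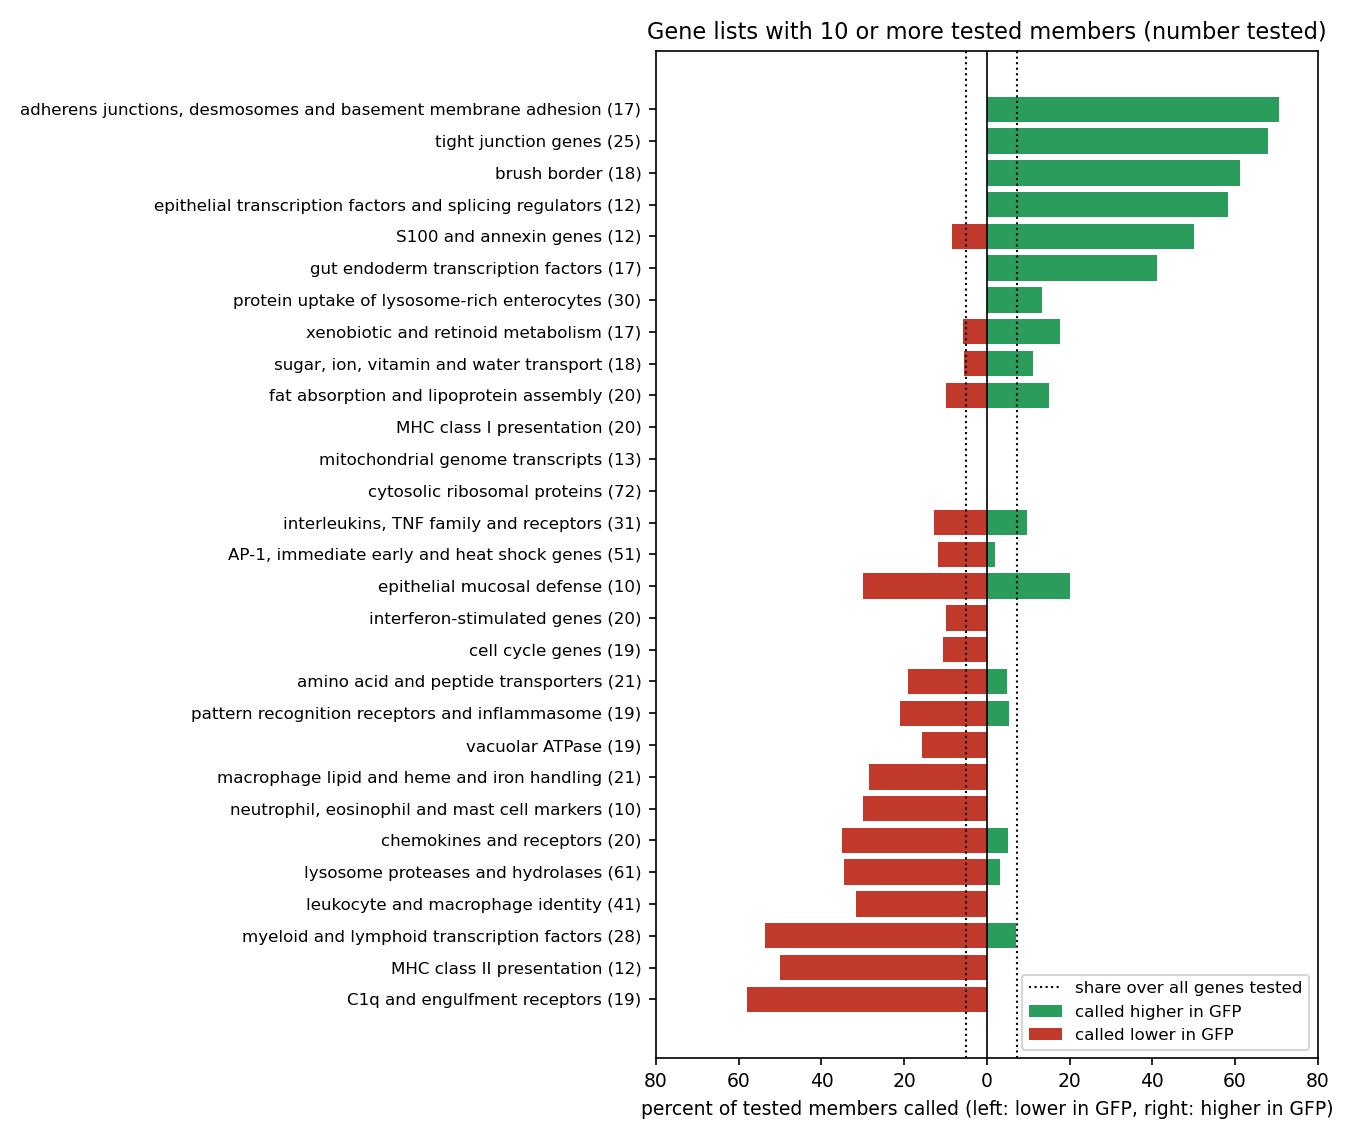
Percent of the tested members of each gene list with 10 or more tested members that were called higher (green, right) or lower (red, left) in GFP cells, with the shares over all tested genes as dotted lines (7.22% and 5.01%). Junction, brush border and endoderm lists extend to the right, and C1q, MHC class II, myeloid factor and lysosome lists to the left, while MHC class I, mitochondrial and ribosomal lists have no called member.

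Lipid handling of macrophages gave 6 lower of 21 tested (39 listed), with 3 without GFP 2 or GFP 3. The cholesterol exporter gene abca1b was at 1.63, 1.82 and 2.02 CPM against 213, 191 and 252 CPM (adjusted p = 0.000589). FABP7 (ENSDARG00000034650), a brain-type fatty acid binding protein and glial marker, was at 4.03, 2.11 and 3.101 CPM against 905, 721 and 142 CPM (adjusted p = 0.000939). In GFP cells both genes were under 1% of their DsRedx mean. The amino acid exporter gene SLC7A7 was at 11.2, 2.49 and 2.74 CPM against 1045, 376 and 270 CPM (adjusted p = 0.00257), and its call ended with 3% of the mean removed (0.0682).

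Of 56 listed chemokine and receptor genes 20 were tested, 7 were lower in GFP cells and 1 was higher (cxcl32b.1), with 4 lower without GFP 2. The call of cxcl32b.1 held only in the fit without GFP 3. Cxcl19 was at 25.6, 44.9 and 18.7 CPM in GFP and 4353, 5015 and 1138 CPM in DsRedx cells (adjusted p = 0.000630, 0.0661 with 3% of the mean removed). Cxcl8a, the neutrophil attractant, was at 6.09, 5.37 and 5.91 CPM against 353, 4099 and 295 CPM (adjusted p = 0.00347), and DsRedx 2 held over 10 times the level of the other DsRedx libraries. The receptor gene CXCR4 (ENSDARG00000041959) was at 302, 299 and 810 CPM against 4507, 8428 and 3809 CPM (adjusted p = 0.00410). It stayed well above the common low level in GFP cells and did not overlap.

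Of single inflammatory genes, TNF gene tnfa was at 1.63, 18.6 and 10.8 CPM against 344, 221 and 211 CPM (adjusted p = 0.0146, 0.0790 without GFP 3), and the receptor gene tnfrsf1b at 3.09, 9.88 and 1.15 CPM against 289, 162 and 498 CPM (adjusted p = 0.00542). With 3% of the mean removed both calls ended (0.157 and 0.123). ACOD1, which makes the antimicrobial metabolite itaconate, was at 4.97, 4.99 and 5.48 CPM against 54.1, 854 and 1738 CPM (adjusted p = 0.00467), with a wide spread among DsRedx libraries.

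Markers of other cell types were read in the same libraries. The 45 enteroendocrine genes summed to 50.9, 1612 and 42.2 CPM in GFP and 11.7, 11.4 and 7.90 CPM in DsRedx libraries, so GFP 2 alone was high. In it the hormone gene CCK was at 712 CPM against 3.43 and 3.53 CPM in the other GFP libraries, and SCG3, of secretory granules, at 285 CPM against 1.11 and 1.66 CPM. None of the 5 tested enteroendocrine genes was called by edgeR, although all 5 had an unadjusted p under 0.05 and DESeq2 called 2. GFP 2 is also the library that carried FABP2, apoa4a, SLC15A1 and HNF4A above. The part these transcripts play in the other calls was not tested. Without GFP 2 the number called higher fell from 7 to 3 for gut endoderm factors, the lowest count of any such fit. For tight junction genes it fell from 17 to 9, but it was only 9 to 11 whichever library was left out. Foxa3, cdx1b, GATA6, VIL1, ANKS4B, cldn15la, cldn15lb and FABP6 were among the genes still called without GFP 2.

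Of 27 goblet cell and mucin genes 6 were tested and none was called by edgeR, at an unadjusted p under 0.05 or by DESeq2, with summed levels of 1660, 1537 and 1720 CPM in GFP and 1487, 1296 and 1677 CPM in DsRedx cells. Of 30 pancreatic acinar genes 26 were at 0 in all libraries and the sum was at most 11.5 CPM. Of 55 endothelial and stromal genes 5 were tested, with TAGLN (ENSDARG00000033466), SOX7 and PROX1 higher (none without GFP 1) and MYLK (ENSDARG00000034801) lower. The list summed to 1968, 1226 and 1277 CPM in GFP and 382, 333 and 267 CPM in DsRedx cells. PROX1 is also counted on the gut endoderm list. Of 32 BEST4 cell, tuft cell and ionocyte genes 6 were tested and ALOX5 (ENSDARG00000057273) and GFI1B were higher (neither without GFP 1). The list sum was lower in GFP cells. The 45 T cell, NK cell and innate lymphoid genes summed to 1991, 2063 and 916 CPM in GFP and 5364, 5000 and 6926 CPM in DsRedx cells, with 24 of them at 0 in all 6. Of 8 tested, 3 were lower (RUNX3, ID2 and cd4-1), and 1 without any 1 GFP library or DsRedx 3. In DsRedx libraries cd4-1, which macrophages of fish can also carry, was at 3.66, 123.4 and 246 CPM, low in DsRedx 1 (adjusted p = 0.0195), and its call held in 2 of the 6 fits and ended with 3% of the mean removed (0.0578). Genes at 100 CPM or more in 1 library and under 10 CPM in the other 5 numbered 22, 18 and 43 in DsRedx 1, 2 and 3, and 0, 5 and 1 in GFP 1, 2 and 3.

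**Figure D4:**
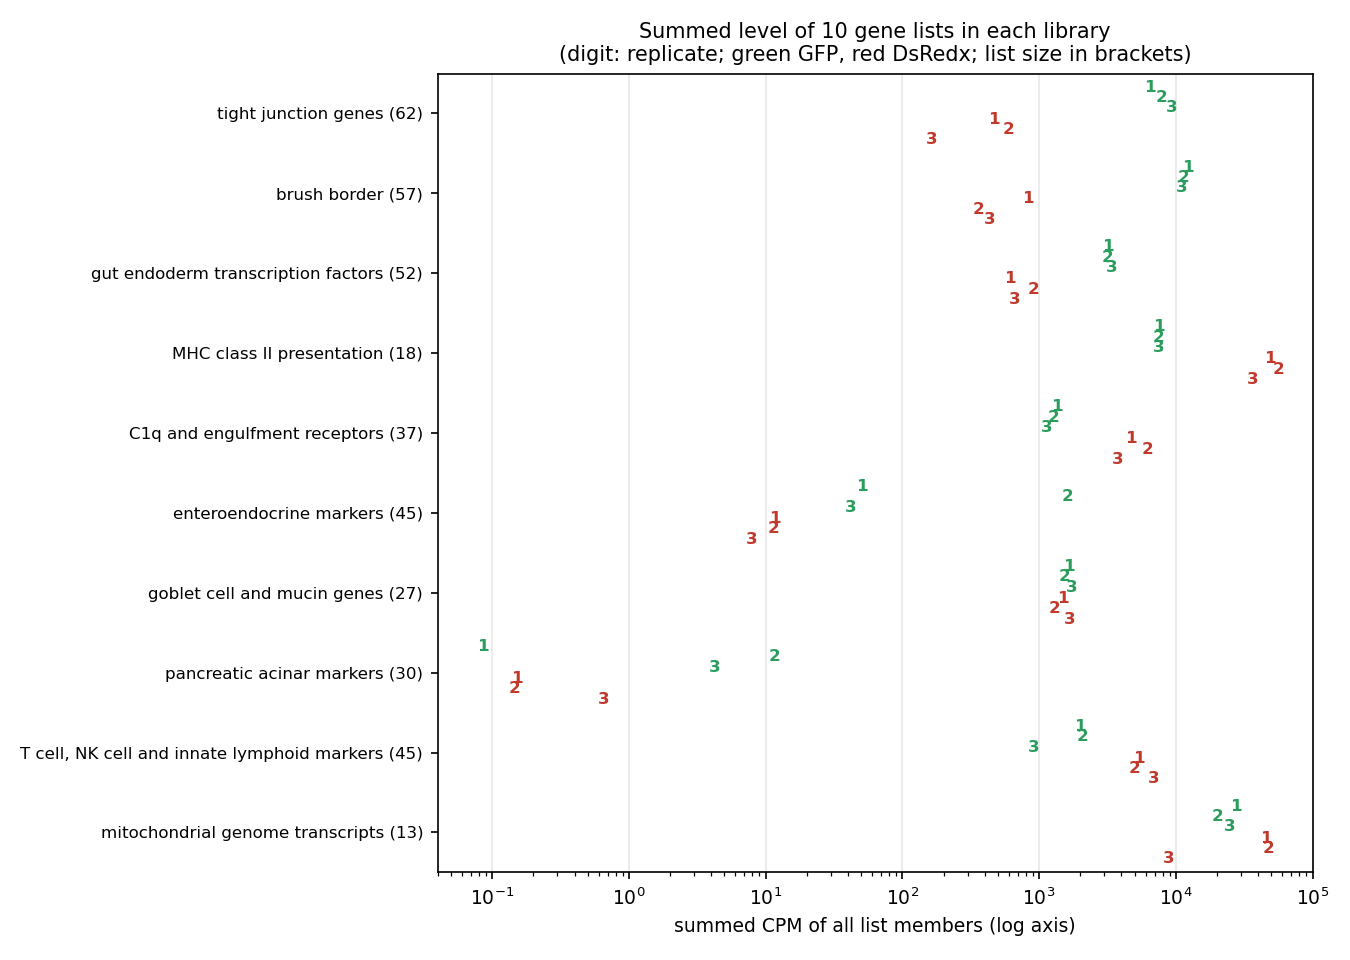
Summed CPM of all members of 10 gene lists in each library (logarithmic axis), with the digit giving the replicate, GFP green and DsRedx red. Tight junction, brush border and endoderm lists are higher and MHC class II and C1q lists lower in all 3 GFP libraries, the goblet list overlaps, and the enteroendocrine list is high in GFP 2 alone (1612 CPM).

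General RNA measures were read last. Of 74 ribosomal protein genes 72 were tested and none was called by edgeR, with 16 lower at an unadjusted p under 0.05 and 8 lower by DESeq2. Their median log2 fold change was -0.80, against -0.14 for all genes, and for 36 of them every DsRedx library lay above every GFP library (50.0%, against 12.6% of all genes). None of 13 mitochondrial genome transcripts was called by edgeR (1 at an unadjusted p under 0.05, 1 by DESeq2), and their median of -0.63 turned to 0.39 by limma on log2(TPM + 1). Mitochondrial transcripts summed to 27300, 20000 and 24890 CPM in GFP and 45320, 47760 and 8808 CPM in DsRedx cells, so DsRedx 3 lay apart below all others. Of 59 listed immediate early and heat shock genes 51 were tested, 1 was higher and 6 were lower (1 without GFP 1 or GFP 2, 2 without GFP 3 and 3 without DsRedx 2), and DsRedx 3 had the highest sum (112100 CPM against 17510 to 45530 CPM elsewhere).

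Genes of the intestine program were then looked up in the gill libraries of the same series, 3 GFP and 3 DsRedx. Gill CPM were scaled over all 12 libraries and intestine CPM over the 6 intestine libraries. Levels of the 2 tissues are therefore not on exactly the same scale. TM4SF4, ANKS4B, foxa3, cdx1b, GATA6, FABP6, cldn15la, cldn15lb and krt92 had 0 counts in all 6 gill libraries. Of the 528 genes higher in intestine GFP cells at a DsRedx level under 2%, 113 had no gill count at all. In intestine DsRedx libraries 88 of those 113 had a count in each of the 3. Over all 113 the DsRedx mean lay at a median of 1.09% of the GFP mean. A test that the color difference itself differs between tissues was called for 11 of 10756 genes (0.102%). With both gill colors at 0 that test carries no information on the 9 named genes. Other genes higher in intestine GFP cells were not so restricted. Lgals2b had 144 of 147 gill counts in 1 gill GFP library. Of the uptake genes, pllp was at 37.6, 182 and 254 CPM in gill GFP and 27.0, 1.98 and 1.01 CPM in gill DsRedx cells. Rab11fip1a was at 31.7, 46.0 and 55.6 CPM against 0.196, 0.901 and 0.144 CPM. Both were thus higher in every gill GFP than in every gill DsRedx library, whereas dab2 had only 4 gill counts. Cldn3c was at 2250, 5977 and 3989 CPM in gill GFP and 37.33, 45.75 and 35.39 CPM in gill DsRedx cells. Epcam was at 1278, 1968 and 511.3 CPM against 14.46, 45.03 and 19.42 CPM. Grna.2 was at 21460, 26270 and 46390 CPM against 378.4, 1403 and 266.3 CPM. Icn, SPIC, cdh1 and PROX1 were likewise higher in every gill GFP than in every gill DsRedx library. AQP3 (ENSDARG00000003808) and krt18a.1 overlapped between gill colors. Of the macrophage markers lower in intestine GFP cells, ptprc, SPI1, IRF8, marco, c1qa, c1qb and c1qc were also lower in every gill GFP than in every gill DsRedx library. Ptprc was at 2.07, 1.44 and 2.12 CPM in gill GFP and 601, 466 and 368 CPM in gill DsRedx cells. Csf1ra was at 0 in all gill GFP libraries and in gill DsRedx 1.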

How the data were processed

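Gene counts were made by the authors with STAR, featureCounts and the danRer11 build, per the submitters' processing notes, with versions not given there. The deposited table also holds TPM values, made by the authors in a way the labels do not describe, which served only as an alternative. No source used here states whether counting used strand, so overlapping and antisense genes are uncertain. The raw counts of the 6 intestine libraries were fitted in edgeR 4.0.16 (R 4.3.3) with TMM scaling and the quasi-likelihood test, without covariates. Genes needed 10 counts in 3 libraries, and Benjamini-Hochberg adjusted p-values ran over all genes tested. DESeq2 1.42.0 and limma 3.58.1 on log2(TPM + 1) and log2(TPM + 0.1) were alternatives. A further fit removed 3% of each gene's mean over the 6 libraries, and 1 fit of all 12 libraries tested the tissue difference. Some results are not reported here. The procedure was tested on simulated data.

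Symbols came from a gene name table and RefSeq for 29201 of 32520 genes, and 6136 genes share a symbol with another gene, so such genes carry their ID. Near-identical copies could share reads. The comparison and the 39 gene lists were chosen with earlier results of these data known. The lists overlap, so a called gene can be counted on more than 1 of them, as LGMN, marco and CXCR4 (ENSDARG00000041959) are. Named genes were the 10 with the smallest p in each direction among called genes of 100 CPM or more without overlap, the 8 called genes of highest level in each color, up to 4 called members per list and direction, and a set of markers. HNF4G, oclna, tjp3, lsr, ctnna1, krt8, krt18b, USH1C, MYO5B, TM4SF5, rac2, CORO1A, havcr1 and CTSD lie outside that rule and were chosen after their values were seen.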

Additional observations from a re-analysis of the deposited data

Results flagged for a closer look

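The difference between colors itself differed between intestine and gill for 2 of the genes named above, by the interaction of color and tissue in edgeR's quasi-likelihood test over all 12 libraries. For the chemokine receptor gene CXCR4 (ENSDARG00000041959) the log2 difference of GFP against DsRedx cells was lower in intestine than in gill by -4.32 (adjusted p = 0.0326). In gill, with CPM scaled over all 12 libraries, it was at 3664, 9368 and 6463 CPM in GFP and 1110, 4789 and 5583 CPM in DsRedx cells. The gill colors overlap, whereas every intestine GFP library lay below every intestine DsRedx library. For the water and glycerol channel gene AQP3 (ENSDARG00000003808) the difference was higher in intestine than in gill by 7.12 (adjusted p = 0.0391). In gill it was at 151, 200 and 475 CPM in GFP and 383, 83.2 and 766 CPM in DsRedx cells, again with overlap. Neither call held widely when 1 of the 12 libraries was left out. CXCR4 was called in 3 of the 12 fits, with values from -4.98 to -3.77 and adjusted p from 0.0272 to 0.128, and AQP3 in 2, with values from 6.30 to 7.77 and adjusted p from 0.0104 to 0.128.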

How the results depend on the processing

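The 1060 calls became 2258 with DESeq2, 1636 with limma on log2(TPM + 1), 1730 on log2(TPM + 0.1), 475 with all 12 libraries in the fit and 517 with 3% of each gene's mean removed. They ranged from 360 to 854 with 1 library left out. The 194 calls within the gene lists became 129 with all 12 libraries and 115 with 3% removed, and ranged from 94 to 177 with 1 library left out. The 11 calls of the tissue difference became 843 with DESeq2 and 26 with a replicate block, and ranged from 0 to 16 with 1 library left out; at an unadjusted p under 0.05 the 3 fits without a call had 1454, 1426 and 1409 genes. Of 135 called genes named by the rule, none changed direction under any alternative run, 128 stayed called with RLE scaling, 88 of 130 with 3% removed, and 82 to 112 with 1 library left out.

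Same-numbered GFP and DsRedx libraries correlated in their deviations from the group means at only 0.043, 0.046 and 0.047, so the numbers were not treated as pairs, although each library correlated best with its own number. A replicate block gave 689 calls, 317 higher and 372 lower. Without GFP 2 the log2 fold changes of CCK and SCG3, which were not called, turned to -0.20 and -0.45, against up to 6.47 and 6.23 with another library left out. The share of calls that were higher was 37.7% without the count filter and 76.2% by limma on log2(TPM + 1), and the cause was not tested. With 3 libraries a color, few cells per library and a biological coefficient of variation of 1.17, smaller differences could be missed.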

Other observations

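Innate sensing genes were called mostly lower in GFP cells. Of 32 listed pattern recognition genes 19 were tested, with 4 lower (21.1%, against 5.01% of all genes) and 1 higher in GFP cells, and none was called in either direction without GFP 1. IRAK3, a brake on Toll-like receptor signalling, was at 118 ± 30.4 CPM in GFP libraries and 723 ± 195 CPM in DsRedx cells (SD, n = 3, adjusted p = 0.00751 by edgeR's quasi-likelihood test). Of 36 interferon-stimulated genes 20 were tested and 2 were lower, mxc among them, and none was called lower without GFP 1.

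Enzymes that handle foreign compounds moved both ways. Of 58 listed genes 17 were tested, with CYP1A1, MGST3 and adh8b higher (17.65%) and ABCB4 lower (5.88%). The shares over all genes were 7.22% and 5.01%. None was called higher without GFP 1. Among 40 mucosal defense genes 10 were tested, with 2 higher (chia.5 and chia.6) and 3 lower (1 without any 1 GFP library or DsRedx 2). Of the lower genes, lygl1, a goose-type lysozyme, was at 195 ± 85.5 CPM in GFP libraries and 1710 ± 1329 CPM in DsRedx cells (SD, n = 3, adjusted p = 0.0215 by edgeR's quasi-likelihood test).

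Of 53 cell cycle genes 19 were tested and 2 were lower in GFP cells (10.5%, against 5.01% of all genes). They were the replication helicase genes MCM5 and MCM7, and neither was called without GFP 1. By DESeq2, and at an unadjusted p under 0.05 by edgeR, 8 were lower, and the median log2 fold change was -2.53. The 24 neutrophil, eosinophil and mast cell genes had 3 of 10 tested lower. One was fcer1gl, a signalling chain of Fc receptors, at 23.3 ± 18.4 CPM in GFP libraries and 894 ± 448 CPM in DsRedx cells (SD, n = 3, adjusted p = 0.00351 by edgeR's quasi-likelihood test). With 3% of each gene's mean removed, the calls of lygl1 (0.0670), fcer1gl (0.0916), MGST3 (0.0627), ABCB4 (0.260), MCM5 (0.0728) and MCM7 (0.190) ended.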
